A study of Mus musculus with 24 samples.

Results

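The genes described here encode the chains of integrins and laminins, together with nephronectin (Npnt). They were chosen by gene symbol, protein-coding annotation and a total of at least 20 counts over all libraries. This gave 37 of the 37606 genes in the count table: 17 integrin alpha chains, 8 integrin beta chains, the laminin chains and Npnt. A further integrin gene, Itgad, had 67 counts in all 24 libraries and was not in the authors' comparison tables, so it was not counted. RNA came from homogenates of whole mouse aorta. The mice were WT by the labels. An osmotic minipump under the skin had delivered angiotensin II (Ang II), a peptide that narrows arteries and drives up blood pressure, or vehicle (sham) for 2 weeks. Aortas were collected 2, 4 or 6 months later, which gave 6 groups of 4 libraries: Ang II and sham at 2 months, Ang II and sham at 4 months, and Ang II and sham at 6 months. The stated purpose was to profile aortic gene expression at these times after a passing episode of hypertension. The labels used here give no strain, age, dose or animal number, so the p-values reflect only how far these samples spread, and that spread may be technical.

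Integrins are receptors made of 1 alpha and 1 beta chain that span the cell membrane and tie the matrix outside the cell to the actin cytoskeleton inside it. Each cell type carries its own set: smooth muscle and fibroblasts use chains that bind fibronectin, collagen, laminin and nephronectin, leukocytes use chains that bind adhesion molecules on endothelium, and platelets use the fibrinogen receptor. Laminins are cross-shaped trimers of an alpha, a beta and a gamma chain, and they form the sheet of the basement membrane that surrounds each smooth muscle cell and lies under the endothelium. Nephronectin is a secreted matrix protein known as a ligand of integrin alpha8 beta1, for which it is needed in kidney development in mice.

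Levels are given as CPM, a gene's counts scaled to libraries of equal size with TMM factors over all 24 libraries. Levels of different genes are set against each other only per kb of exon. Where a gene is given as a share or ratio of another in CPM, that ratio is compared only between libraries. Libraries held 19163673 to 58676098 counts, of which 22300 to 105855 fell on the 37 genes. At 6 months 31.8% to 59.3% of the counts came from the mitochondrial chromosome, against 7.72% to 16.3% at the earlier times, so levels at 6 months are compared only within that time. Summed markers of the tissue were present in every library: the 10 contractile smooth muscle transcripts at 609.6 to 6510.1 CPM, 8 endothelial transcripts at 609 to 1052 CPM and 6 fibroblast transcripts at 618 to 1548 CPM. Markers of neighbouring tissue varied far more. The 8 measured markers of lung and airway epithelium summed to 5.14 to 7715 CPM, and 5 skeletal muscle markers to 32.1 to 7353 CPM, in libraries of both treatments. In homogenates, fewer cells of a type and less RNA per cell cannot be told apart. One library stood apart for several of the genes: sham replicate 4 at 4 months, with a contractile sum of 2566 CPM, against 764 to 1341 CPM in the other 3 sham libraries of that time. Fold changes of Npnt and Itga8 at 4 months and counts of called genes are given with and without it. Most other values that involve it are given only with all libraries. Where 3 of 4 libraries of a group lay beyond the other group, this only describes the gene. How many of all genes did so was not counted.

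At 2 months 9 of the 36 tested genes were lower in Ang II aortas and 0 were higher. They were Npnt, the integrin chains Itga8, Itga9, Itga5, Itga3, Itgb3 and Itgb5, and the laminin chains Lama5 and Lamb2, with falls between 1.70-fold and 9.45-fold. Called here means an adjusted p under 0.05 in the quasi-likelihood test of edgeR, adjusted by Benjamini-Hochberg over all genes tested. Of all 16421 genes tested at that time 1.81% were called, 1.44% lower and 0.371% higher. The median log2 fold change was -0.098 over the 36 genes and 0.0090 over all genes. The 27 genes that were not called lay between -0.83 and 0.94. At 4 months 0 of 36 passed (0.707% of 16127 genes were called), and at 6 months 0 of 36 passed (0.0% of 19343 genes). At an unadjusted p under 0.05 there were 16 of the 36 genes at 2 months, 6 at 4 months and 3 at 6 months, against 10.8%, 15.5% and 5.05% of all genes. DESeq2 called 12 of them at 2 months, 1 at 4 months (Itgam) and 0 at 6 months, and limma voom 12, 0 and 0. Over all genes, too, both tools called more than edgeR at 2 and 4 months, so the edgeR percentages do not apply to these counts. Their counts over all genes are given with the dependence on processing. Lama1, with 154 counts in all libraries, was too low to test within a time.

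**Figure D1:**
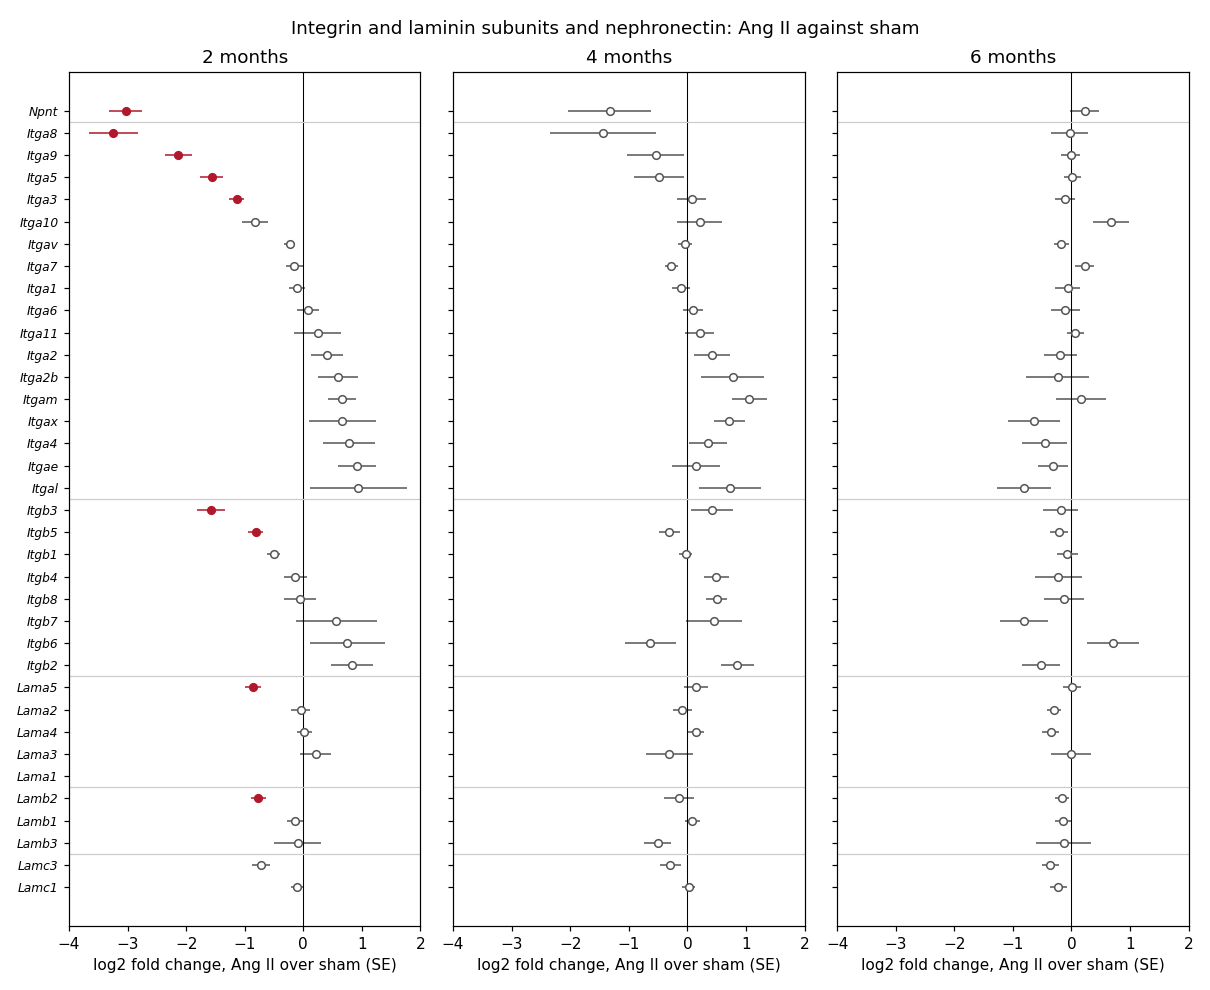
Log2 fold change of Ang II over sham at 2, 4 and 6 months for 36 of the 37 genes, with 1 SE, grouped as nephronectin, integrin alpha, integrin beta, laminin alpha, laminin beta and laminin gamma chains; filled red points passed the test (adjusted p under 0.05, n = 4 per group), and Lama1 was not tested. The 9 filled points all lie left of 0 at 2 months, and no point is filled at 4 or 6 months.

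Npnt and Itga8, the ligand and the alpha chain of its receptor, had the largest falls of the 37 genes. Npnt (ENSMUSG00000040998.18, chromosome 3, 132881745 to 132950291, build mm10, minus strand) had 19.3, 15.6, 10.2 and 10.5 CPM in Ang II aortas, against 153, 107, 78.6 and 129 CPM in sham aortas at 2 months. All 4 Ang II libraries lay far below the lowest sham library, and the gene was 8.18-fold lower (log2 fold change -3.03, edgeR adjusted p = 0.004699, SE 0.283). Itga8, which encodes the alpha8 chain of smooth muscle (ENSMUSG00000026768.10, chromosome 2, 12106632 to 12301922, minus strand), had 45.9, 19.8, 13.8 and 16.6 CPM in Ang II aortas, against 293, 227, 146 and 267 CPM in sham aortas. Again no Ang II library reached a sham one, and the gene was 9.45-fold lower (log2 fold change -3.24, edgeR adjusted p = 0.00963, SE 0.421). Itgb1, the beta1 chain that pairs with alpha8 and with most other alpha chains of the vessel wall (ENSMUSG00000025809.15, chromosome 8, 128685654 to 128733200, plus strand), had 275, 256, 285 and 303 CPM in Ang II aortas, against 442, 369, 364 and 447 CPM in sham aortas. The groups did not overlap, but the smaller difference fell short of the threshold (log2 fold change -0.51, edgeR adjusted p = 0.0534, SE 0.105). DESeq2, voom and the fit without mitochondrial and ribosomal genes each called Itgb1. As a share of Itgb1 in CPM, Itga8 was 16.7, 7.73, 4.84 and 5.46% in Ang II libraries and 66.3, 61.5, 40.03 and 59.7% in sham libraries at 2 months.

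Start regions of Npnt, Itga8 and Itga5 are shown because these 3 genes passed at 2 months under all 16 alternative settings and have a RefSeq window at the annotated gene start. Each runs from 250 bases before the RefSeq transcript start to 30 bases after it on the gene's own strand (RefSeq, build GRCm38.p6), with the bases from the start on in capitals. The stretches are chr3:132950262-132950541, minus strand, for Npnt, chr2:12301915-12302194, minus strand, for Itga8 and chr15:103366762-103367041, minus strand, for Itga5.
Npnt: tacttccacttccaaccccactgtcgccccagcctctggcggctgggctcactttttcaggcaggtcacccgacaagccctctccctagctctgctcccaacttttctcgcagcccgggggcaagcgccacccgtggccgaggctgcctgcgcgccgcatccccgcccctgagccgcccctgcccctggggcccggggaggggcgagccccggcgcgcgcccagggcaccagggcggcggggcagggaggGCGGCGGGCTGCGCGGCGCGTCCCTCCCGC
Itga8: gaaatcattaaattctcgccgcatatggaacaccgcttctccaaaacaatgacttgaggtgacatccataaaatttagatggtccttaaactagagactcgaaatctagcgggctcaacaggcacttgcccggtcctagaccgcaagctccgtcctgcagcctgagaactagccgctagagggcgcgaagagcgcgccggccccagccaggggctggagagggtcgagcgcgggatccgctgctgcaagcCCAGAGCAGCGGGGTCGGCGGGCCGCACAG
Itga5: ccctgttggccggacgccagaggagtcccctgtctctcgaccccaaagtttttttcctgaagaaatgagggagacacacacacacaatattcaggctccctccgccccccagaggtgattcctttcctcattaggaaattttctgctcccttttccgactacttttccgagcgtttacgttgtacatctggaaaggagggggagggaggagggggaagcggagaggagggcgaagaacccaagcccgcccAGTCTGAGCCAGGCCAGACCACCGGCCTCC
They differ in composition: 75.7% of the bases are G or C in the Npnt stretch, 58.9% in that of Itga8 and 57.1% in that of Itga5. The GC box GGGCGG occurs, counting both strands, 4 times in the stretch of Npnt, 0 times in that of Itga8 and 2 times in that of Itga5.

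At 4 months Npnt and Itga8 differed less and the groups overlapped. Npnt had 21.6, 7.96, 5.05 and 8.45 CPM in Ang II aortas, against 10.7, 15.2, 12.8 and 70.7 CPM in sham aortas (log2 fold change -1.32, edgeR adjusted p = 0.406, SE 0.708). Itga8 had 37.6, 10.9, 4.700 and 9.78 CPM in Ang II aortas, against 12.7, 15.5, 19.4 and 126 CPM in sham aortas (log2 fold change -1.44, edgeR adjusted p = 0.471, SE 0.901). Sham replicate 4 was the high library for both, 3 of 4 Ang II libraries lay below every sham library for both, and Ang II replicate 1 lay above the other sham libraries. Without sham replicate 4 the log2 fold change was 0.0055 for Itga8 and -0.24 for Npnt. The authors' deposited values at 4 months were -1.34 for Npnt and -1.45 for Itga8, with no p-value given for either. Itgb1 had 318, 272, 268 and 258 CPM in Ang II aortas, against 254, 283, 272 and 346 CPM in sham aortas at 4 months (log2 fold change -0.031, edgeR adjusted p = 0.904, SE 0.118).

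At 6 months the ligand and its receptor chains overlapped between the treatments and none passed. Npnt had 54.7, 48.3, 49.3 and 29.3 CPM in Ang II aortas, against 26.6, 41.6, 33.6 and 52.9 CPM in sham aortas (log2 fold change 0.22, edgeR adjusted p = 0.9997, SE 0.2501). Itga8 had 155, 134, 78.9 and 54.9 CPM in Ang II aortas, against 87.5, 109, 88.6 and 143 CPM in sham aortas (log2 fold change -0.029, edgeR adjusted p = 0.9997, SE 0.316). Itgb1 had 334, 362, 269.96 and 213 CPM in Ang II aortas, against 312, 285, 288 and 349 CPM in sham aortas (log2 fold change -0.070, edgeR adjusted p = 0.9997, SE 0.174). Ang II replicate 4 at 6 months, which was lowest for Itga8 and Itgb1, held 22300 counts on the 37 genes, the fewest of any library. Nuclear ribosomal RNA and Rn7sk made up 13.99% of its counts, against at most 0.60% in every other library. Without it the log2 fold changes were 0.19 for Itga8 and 0.063 for Itgb1, and its part in the values was otherwise not tested.

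**Figure D2:**
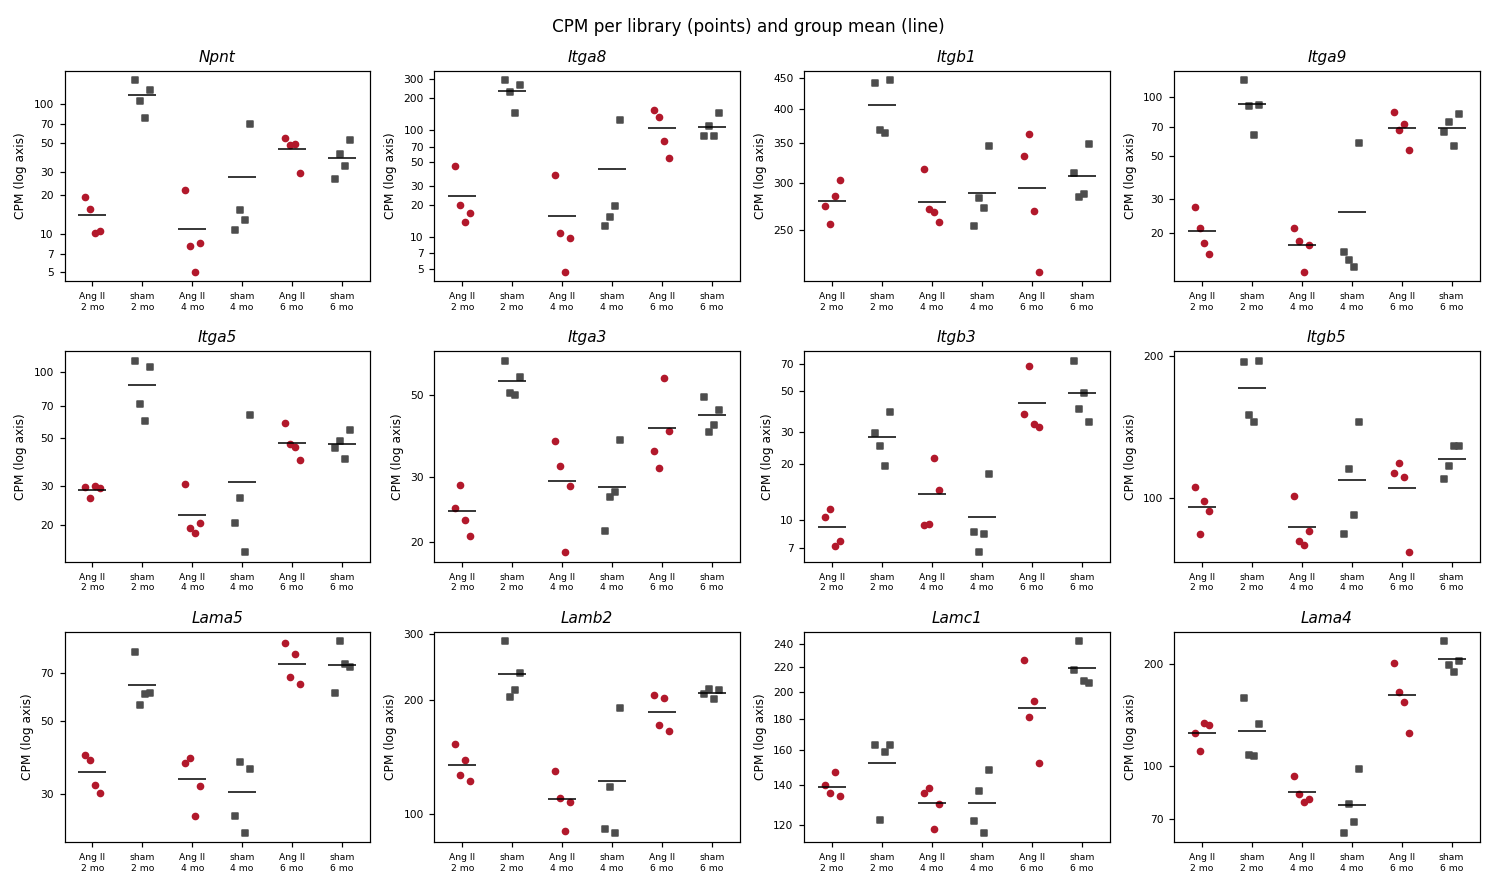
CPM of 12 genes in each library (points, log axis) and the mean of each group of 4 (line), Ang II in red circles and sham in grey squares, at 2, 4 and 6 months. At 2 months the Ang II points of Npnt lie at 10.2 to 19.3 CPM and the sham points at 78.6 to 153 CPM, and at 4 months 1 sham library stands above the other 3 for Npnt, Itga8, Itga9 and Itga5.

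The Ang II effect itself differed between 6 and 2 months for 5 of 36 genes, each with a higher log2 fold change at 6 than at 2 months. By this test 0.985% of 20100 genes were called (0.711% higher and 0.274% lower). All 5 were called lower in Ang II aortas at 2 months. None was called at 6 months, where their log2 fold changes lay between -0.11 (Itga3) and 0.22 (Npnt). At an unadjusted p under 0.05 there were 13 of the 36 genes and 9.54% of all genes. The difference of the log2 fold changes was 3.25 for Npnt (edgeR adjusted p = 0.00178, SE 0.398), 3.19 for Itga8 (adjusted p = 0.0113, SE 0.557), 2.12 for Itga9 (adjusted p = 0.00402, SE 0.301), 1.58 for Itga5 (adjusted p = 0.007105, SE 0.252) and 1.02 for Itga3 (adjusted p = 0.0391, SE 0.222). Npnt, Itga8, Itga9 and Itga5 were called under all 22 alternatives, and Itga3 under 8 of 22. Libraries of both treatments held more mitochondrial counts at 6 than at 2 months, and the part of this in the difference was not tested. Between 4 and 2 months 0 of 37 genes passed, as did 0 of all 17153 genes (0.0%), although 9 of the 37 and 10.6% of all genes had an unadjusted p under 0.05. Without sham replicate 4 at 4 months 5 of the 37 genes passed (Itga3, Itga5, Itga9, Itgb3 and Npnt), and 128 of all genes. Each of the 5 had a higher log2 fold change at 4 than at 2 months. With all libraries DESeq2 called Itga3, Itgb3 and Lama5, and voom called Itga10, Itga3, Itga9, Itgb3 and Lama5. Both tools also called genes outside the 37, where edgeR called 0 of all genes. These contrasts share the libraries of 2 months with the comparison at that time.

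Integrin chains of smooth muscle and fibroblasts other than Itga8 and Itgb1 split into those that fell at 2 months and those that did not. Itga9, the alpha9 chain, a receptor of tenascin C and other matrix proteins (ENSMUSG00000039115.13, chromosome 9, 118606690 to 118901003), had 27.3, 21.1, 17.7 and 15.5 CPM in Ang II aortas, against 122, 89.9, 64.00 and 90.8 CPM in sham aortas (log2 fold change -2.13, edgeR adjusted p = 0.00646, SE 0.236). Itga5, the alpha5 chain of the main fibronectin receptor (ENSMUSG00000000555.7, chromosome 15, 103344286 to 103366763), had 29.8, 26.5, 30.2 and 29.3 CPM in Ang II aortas, against 113, 71.6, 59.5 and 106 CPM in sham aortas (log2 fold change -1.57, edgeR adjusted p = 0.008204, SE 0.192). The 4 Ang II values of Itga5 spanned less than 4 CPM, whereas the sham values were spread over more than 50 CPM. Itgb3, the beta3 chain that pairs with alphav in the vessel wall and with alphaIIb in platelets (ENSMUSG00000020689.4, chromosome 11, 104608000 to 104670476), had 10.4, 11.4, 7.17 and 7.67 CPM in Ang II aortas, against 29.6, 24.9, 19.5 and 38.1 CPM in sham aortas (log2 fold change -1.57, edgeR adjusted p = 0.0159, SE 0.238). Itgb5, the beta5 chain, which pairs with alphav to bind vitronectin (ENSMUSG00000022817.14, chromosome 16, 33829665 to 33949153), had 106, 83.9, 98.8 and 94.01 CPM in Ang II aortas, against 194, 149.8, 145 and 195 CPM in sham aortas (log2 fold change -0.81, edgeR adjusted p = 0.01802, SE 0.126). In these 4 genes every Ang II library lay below every sham library. Itgb3 was not called without Ang II replicates 3 or 4 or sham replicate 1, and Itgb5 not without Ang II replicates 2, 3 or 4 or sham replicate 1 (highest adjusted p = 0.0704 and 0.0742 by edgeR).

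The collagen, laminin and alphav chains of the same cells showed no called difference at 2 months. Itga1, a collagen receptor chain, had 84.2, 79.6, 88.4 and 91.4 CPM in Ang II aortas, against 113, 97.9, 96.7 and 70.2 CPM in sham aortas (log2 fold change -0.11, edgeR adjusted p = 0.885, SE 0.136). Itga7, the laminin receptor chain of muscle, had 89.1, 62.02, 75.1 and 65.7 CPM in Ang II aortas, against 90.7, 67.1, 76.9 and 96.6 CPM in sham aortas (log2 fold change -0.15, edgeR adjusted p = 0.834, SE 0.148). Itgav, the alphav chain shared by several receptors of the arginine-glycine-aspartate motif, had 27.6, 28.7, 28.8 and 30.96 CPM in Ang II aortas, against 39.8, 30.8, 35.6 and 32.9 CPM in sham aortas (log2 fold change -0.23, edgeR adjusted p = 0.3601, SE 0.08898). For Itgav, the partner of both beta3 and beta5, 3 of 4 Ang II libraries lay below every sham library. Of the 9 smooth muscle and fibroblast integrin chains all 9 had a log2 fold change below 0 at 2 months, with a median of -0.81 and 5 called. Of the 36 genes 21 lay below 0 at that time, and 1.44% of all genes were called lower.

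At 4 months the highest sham library was again replicate 4 for 6 of these 7 chains, Itga1 being the exception. Itga9 had 21.1, 18.2, 12.6 and 17.3 CPM in Ang II aortas, against 15.9, 14.4, 13.4 and 58.3 CPM in sham aortas (log2 fold change -0.54, edgeR adjusted p = 0.6099, SE 0.486). Itga5 had 30.7, 19.4, 18.3 and 20.4 CPM in Ang II aortas, against 20.4, 26.5, 14.9 and 63.9 CPM in sham aortas (log2 fold change -0.49, edgeR adjusted p = 0.603, SE 0.4297). The other 3 sham libraries of both genes overlapped the Ang II ones. Itgb3 had 9.405, 9.44, 21.7 and 14.5 CPM in Ang II aortas, against 8.59, 6.65, 8.39 and 17.7 CPM in sham aortas (log2 fold change 0.42, edgeR adjusted p = 0.595, SE 0.364). Itgb5 had 101, 81.01, 79.7 and 85.2 CPM in Ang II aortas, against 84.1, 115, 92.04 and 145 CPM in sham aortas (log2 fold change -0.31, edgeR adjusted p = 0.433, SE 0.176). For these beta chains too the groups overlapped. Itga1 had 109, 85.8, 71.1 and 73.1 CPM in Ang II aortas, against 86.7, 105, 88.97 and 90.5 CPM in sham aortas (log2 fold change -0.11, edgeR adjusted p = 0.741, SE 0.149). Itga7 had 55.3, 56.3, 48.2 and 51.00 CPM in Ang II aortas, against 62.7, 66.8, 55.3 and 74.04 CPM in sham aortas (log2 fold change -0.27, edgeR adjusted p = 0.2701, SE 0.108). Itgav had 26.5, 27.2, 26.5 and 25.2 CPM in Ang II aortas, against 28.5, 29.3, 21.4 and 30.7 CPM in sham aortas (log2 fold change -0.042, edgeR adjusted p = 0.866, SE 0.117). None of the 3 chains passed. For Itga7, the lowest 2 of the Ang II libraries lay under all sham ones, with an unadjusted p of 0.0326.

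At 6 months after the infusion no chain of this group passed, and 7 of 9 had a log2 fold change below 0 (median -0.063). Of the 36 genes 28 lay below 0 at that time (median -0.156). Itga9 had 83.5, 67.9, 73.1 and 53.3 CPM in Ang II aortas, against 66.3, 74.7, 55.95 and 82.03 CPM in sham aortas (log2 fold change -0.0090, edgeR adjusted p = 0.9997, SE 0.163). Itga5 had 58.4, 46.7, 45.3 and 39.4 CPM in Ang II aortas, against 45.1, 48.2, 39.8 and 54.2 CPM in sham aortas (log2 fold change 0.016, edgeR adjusted p = 0.9997, SE 0.141). Itgb3 had 37.3, 68.3, 32.98 and 31.8 CPM in Ang II aortas, against 72.5, 39.8, 48.7 and 33.7 CPM in sham aortas (log2 fold change -0.19, edgeR adjusted p = 0.9997, SE 0.294). All 3 genes overlapped between the treatments, and Ang II replicate 2 stood above its group for Itgb3. Itgb5 had 113, 119, 111 and 76.8 CPM in Ang II aortas, against 109.6, 117, 129 and 129 CPM in sham aortas (log2 fold change -0.21, edgeR adjusted p = 0.9997, SE 0.151). Itga1 had 120.01, 133, 80.9 and 63.1 CPM in Ang II aortas, against 98.3, 99.3, 102 and 113 CPM in sham aortas (log2 fold change -0.063, edgeR adjusted p = 0.9997, SE 0.216). Itga7 had 70.5, 58.5, 57.9 and 43.3 CPM in Ang II aortas, against 42.9, 54.4, 44.7 and 54.3 CPM in sham aortas (log2 fold change 0.22, edgeR adjusted p = 0.9997, SE 0.1597). Among these, Itga7 had 3 of 4 Ang II libraries above every sham library. Itgav had 97.3, 94.6, 75.9 and 69.1 CPM in Ang II aortas, against 100.1, 87.7, 100.3 and 91.7 CPM in sham aortas (log2 fold change -0.18, edgeR adjusted p = 0.9997, SE 0.127).

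The 9 called genes were set beside the summed level of 10 contractile transcripts (Acta2, Myh11, Tagln, Cnn1, Myl9, Smtn, Lmod1, Mylk, Des and Actg2), the actin and myosin machinery of smooth muscle, of which 8 were called lower at 2 months and none of the 10 was at 0 in any library. That sum was 1785, 1068, 1261 and 927 CPM in Ang II aortas, against 5248, 4030.03, 3494 and 6510.1 CPM in sham aortas at 2 months, a mean difference of -1.94 on the log2 scale (two-sided exact permutation p = 0.0286, the smallest that 4 against 4 allows). Npnt as a share of the sum was 0.807% to 1.46% in Ang II aortas and 1.98% to 2.92% in sham aortas, and Itga8 was 1.096% to 2.57% in Ang II aortas and 4.09% to 5.63% in sham aortas. These shares did not overlap, and their log2 differences were -1.14 for Npnt and -1.46 for Itga8 (exact permutation p = 0.0286 each, again the smallest possible, and 0.0514 after Benjamini-Hochberg adjustment over the 9 genes). Itgb5 as a share was 5.91% to 10.1% in Ang II aortas and 2.99% to 4.14% in sham aortas, Lamb2 8.56% to 13.1% in Ang II aortas and 3.63% to 6.07% in sham aortas and Lama5 2.21% to 3.57% in Ang II aortas and 0.938% to 1.74% in sham aortas. The shares of these 3 genes lay higher in every Ang II library, with log2 differences of 1.11, 1.15 and 1.05 (exact permutation p = 0.0286 and adjusted p = 0.0514 each). In these libraries Npnt and Itga8 fell by more than the sum, and Itgb5, Lamb2 and Lama5 by less, though none of the 5 passed 0.05 after adjustment. At the smallest possible p they could pass only if more of the 9 genes also reached it. The adjusted p therefore cannot decide here. The 9 genes were taken because they were called in these same libraries, so the shares only describe them. Of the 10 transcripts 1 had a log2 fold change above 0 at 2 months, and 1.44% of all genes were called lower at that time. As shares of the sum, Itga9, Itga5, Itgb3 and Itga3 overlapped between the groups (differences -0.22, 0.39, 0.34 and 0.77; exact permutation p = 0.343, 0.114, 0.229 and 0.0571). The contractile sum was 863, 824, 609.6 and 999.9 CPM in Ang II aortas, against 901, 1341, 764 and 2566 CPM in sham aortas at 4 months (log2 difference -0.61, exact permutation p = 0.229). At 6 months it was 1431, 1372, 2417 and 1940.1 CPM in Ang II aortas, against 999.97, 1256, 906 and 1262 CPM in sham aortas, higher in Ang II aortas without overlap (0.67, exact permutation p = 0.0286, the smallest possible). None of the 10 transcripts was called at that time (median log2 fold change 0.45), and Npnt and Itga8 overlapped there.

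**Figure D3:**
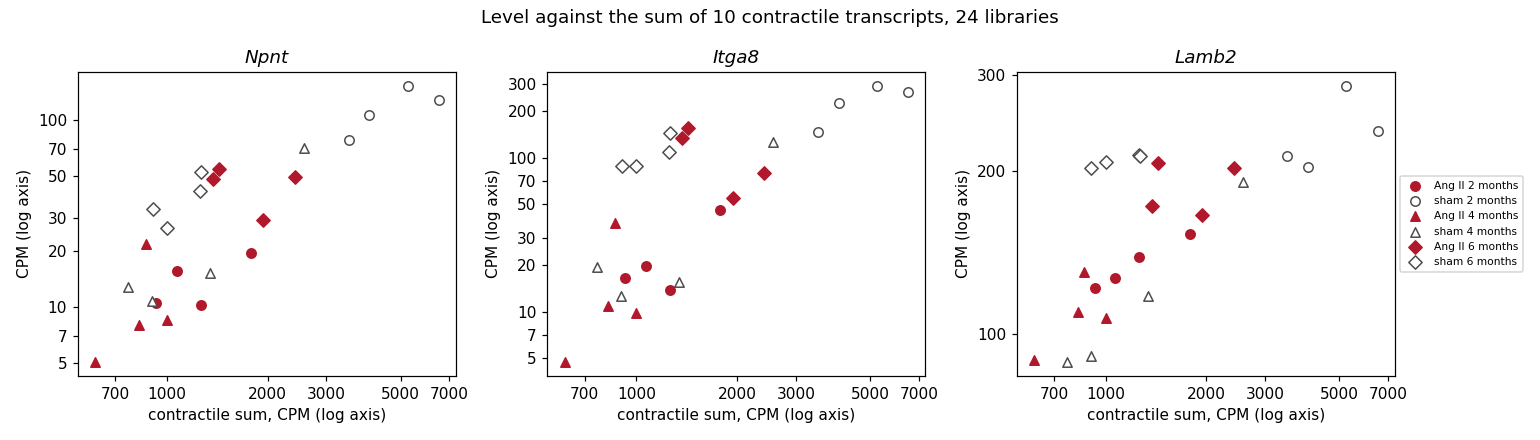
CPM of Npnt, Itga8 and Lamb2 in each of the 24 libraries against the summed CPM of 10 contractile smooth muscle transcripts, both on log axes, Ang II filled red and sham open, with circles for 2, triangles for 4 and diamonds for 6 months. The 4 sham libraries at 2 months (3494 to 6510.1 CPM on the horizontal axis) lie at the upper right, and sham replicate 4 at 4 months (2566 CPM) lies nearest to them.

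Among the integrin chains of epithelium and endothelium, only Itga3 passed at 2 months. Itga3, the alpha3 chain, a laminin receptor (ENSMUSG00000001507.16, chromosome 11, 95044474 to 95076801), had 24.7, 28.4, 23.00 and 20.8 CPM in Ang II aortas, against 61.7, 50.5, 49.9 and 55.6 CPM in sham aortas (log2 fold change -1.14, edgeR adjusted p = 0.00646, SE 0.125). Every Ang II library lay below every sham library. Itga6, the alpha6 chain of laminin receptors, had 50.3, 53.6, 76.8 and 81.4 CPM in Ang II aortas, against 74.99, 63.1, 65.7 and 47.8 CPM in sham aortas (log2 fold change 0.080, edgeR adjusted p = 0.9495, SE 0.184). Itgb4, its partner in hemidesmosomes, had 20.05, 28.3, 18.5 and 17.3 CPM in Ang II aortas, against 20.3, 19.2, 26.7 and 28.2 CPM in sham aortas (log2 fold change -0.13, edgeR adjusted p = 0.911, SE 0.201). Itgb6, the beta6 chain of epithelium, had 0.568, 1.84, 3.39 and 0.941 CPM in Ang II aortas, against 0.564, 0.686, 2.14 and 0.615 CPM in sham aortas (log2 fold change 0.75, edgeR adjusted p = 0.807, SE 0.645). All 3 overlapped, and the highest sham library of Itgb6, replicate 3, was also the one with the most lung and airway epithelium transcripts (7715 CPM, against 10.7 to 633 CPM in the other sham libraries). Among the Ang II libraries it ran the other way: replicate 1, with the most of those transcripts (2014 CPM), had the lowest Itgb6, and replicate 3, with 82.3 CPM, the highest. The part of that tissue in the values was not tested. The 8 endothelial markers summed to 948, 742, 829 and 892 CPM in Ang II aortas, against 987, 804, 789 and 807 CPM in sham aortas at 2 months, with 1 of 8 called (Cldn5, a tight junction gene, higher with a log2 fold change of 1.40).

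Later these chains showed no called difference. At 4 months Itga3 had 37.4, 32.2, 18.8 and 28.3 CPM in Ang II aortas, against 21.4, 26.6, 27.3 and 37.8 CPM in sham aortas (log2 fold change 0.072, edgeR adjusted p = 0.891, SE 0.242). Itga6 had 59.9, 54.5, 56.9 and 46.6 CPM in Ang II aortas, against 49.8, 71.3, 43.5 and 42.8 CPM in sham aortas (log2 fold change 0.091, edgeR adjusted p = 0.805, SE 0.171). Itgb4 had 20.8, 30.4, 15.5 and 27.1 CPM in Ang II aortas, against 18.6, 17.3, 14.2 and 17.9 CPM in sham aortas, with 3 of 4 Ang II libraries above every sham library (log2 fold change 0.49, edgeR adjusted p = 0.318, SE 0.214). Itgb6 stayed under 3 CPM in every library. It had 0.482, 0.941, 1.55 and 1.17 CPM in Ang II aortas, against 1.46, 2.79, 1.300 and 0.963 CPM in sham aortas (log2 fold change -0.63, edgeR adjusted p = 0.509, SE 0.434). At 6 months Itga3 had 35.1, 31.7, 55.5 and 39.9 CPM in Ang II aortas, against 49.4, 39.6, 41.3 and 45.5 CPM in sham aortas (log2 fold change -0.11, edgeR adjusted p = 0.9997, SE 0.176). Itga6 had 87.8, 125, 67.1 and 59.8 CPM in Ang II aortas, against 111, 71.7, 106 and 75.7 CPM in sham aortas (log2 fold change -0.10, edgeR adjusted p = 0.9997, SE 0.242). The groups overlapped for both. Itgb4 had 22.9, 18.7, 53.3 and 33.5 CPM in Ang II aortas, against 20.6, 35.3, 59.9 and 33.02 CPM in sham aortas (log2 fold change -0.22, edgeR adjusted p = 0.9997, SE 0.405). Itgb6 had 3.56, 4.12, 11.2 and 5.09 CPM in Ang II aortas, against 1.91, 4.83, 4.64 and 3.18 CPM in sham aortas (log2 fold change 0.71, edgeR adjusted p = 0.9997, SE 0.444). The highest Itgb6 value at 6 months was that of Ang II replicate 3, a library with 4096 CPM of lung and airway epithelium transcripts, though Ang II replicate 1 had slightly more (4316 CPM).

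Leukocyte integrin chains had positive log2 fold changes at 2 and 4 months, but none was called. All 7 (Itga4, Itgae, Itgal, Itgam, Itgax, Itgb2 and Itgb7) lay above 0 at 2 months (median 0.78) and at 4 months (median 0.72), and 6 of 7 lay below 0 at 6 months (median -0.52). Of the 36 genes 15 lay above 0 at 2 months and 21 at 4 months, and 28 lay below 0 at 6 months. At 2 months Itgb2, the shared beta2 chain of leukocytes, had 19.6, 39.2, 23.1 and 16.8 CPM in Ang II aortas, against 9.63, 22.97, 11.1 and 12.8 CPM in sham aortas (log2 fold change 0.84, edgeR adjusted p = 0.4399, SE 0.355). Itgal, the alpha chain of the lymphocyte receptor LFA-1, had 6.45, 28.8, 12.3 and 3.49 CPM in Ang II aortas, against 2.43, 18.2, 3.84 and 2.75 CPM in sham aortas (log2 fold change 0.94, edgeR adjusted p = 0.817, SE 0.8305). Replicate 2 was the highest library of both groups for both genes. Itgam, the alpha chain of Mac-1 on macrophages and neutrophils, had 7.47, 5.801, 5.88 and 10.5 CPM in Ang II aortas, against 3.702, 4.59, 4.56 and 6.195 CPM in sham aortas (log2 fold change 0.66, edgeR adjusted p = 0.337, SE 0.241). Itgax, the alpha chain of dendritic cells and some macrophages, had 1.91, 5.86, 3.82 and 2.62 CPM in Ang II aortas, against 1.16, 5.11, 1.73 and 1.11 CPM in sham aortas (log2 fold change 0.66, edgeR adjusted p = 0.809, SE 0.573). Itga4, the alpha4 chain that binds Vcam1, had 7.14, 17.7, 9.57 and 6.35 CPM in Ang II aortas, against 5.68, 10.6, 4.73 and 3.32 CPM in sham aortas (log2 fold change 0.78, edgeR adjusted p = 0.633, SE 0.441). For Itgam 2 of 4 Ang II libraries lay above every sham library and for the other 4 genes 1 or 2 did. Of Itgam's exon length 68.7% is shared with the predicted gene Gm49368 on the same strand, so its level is uncertain. Itgae, the alphaE chain of tissue T cells, was the only chain without overlap in the higher direction at 2 months, but the lowest Ang II and the highest sham library were both at 2.09 CPM (log2 fold change 0.92, edgeR adjusted p = 0.315, SE 0.327).

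Markers of the cells that carry these chains were summed in the same libraries. Summed over 6 T and NK cell markers the level was 17.2, 73.5, 31.3 and 10.4 CPM in Ang II aortas, against 7.58, 79.1, 6.43 and 3.65 CPM in sham aortas, and over 4 B cell markers 45.4, 237, 112 and 13.8 CPM in Ang II aortas, against 10.7, 119, 10.6 and 5.87 CPM in sham aortas, at 2 months, with replicate 2 highest in both groups. Over 7 macrophage markers it was 248, 275, 246 and 216 CPM in Ang II aortas, against 133, 125, 148 and 202 CPM in sham aortas at 2 months and 222, 278, 249 and 249 CPM in Ang II aortas, against 149, 118, 101 and 192 CPM in sham aortas at 4 months, with every Ang II library above every sham library at both times. None of these 17 markers was at 0 in any library. Of the macrophage list 3 of 7 were called higher at 2 months (log2 fold changes: Adgre1 0.98, Cd68 1.51 and Trem2 1.48) and 2 of 7 at 4 months (Cd68 1.76 and Trem2 1.55), and 0 of 6 T and NK cell and 0 of 4 B cell markers at either time. Of all genes 0.371% were called higher at 2 months and 0.143% at 4 months. The part of these cells in the integrin values was not tested.

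At 4 months Itgb2 had 25.2, 31.5, 56.9 and 33.05 CPM in Ang II aortas, against 26.6, 12.6, 19.2 and 23.4 CPM in sham aortas (log2 fold change 0.85, edgeR adjusted p = 0.199, SE 0.282). Itgam had 8.36, 13.4, 10.9 and 5.23 CPM in Ang II aortas, against 3.91, 4.697, 3.73 and 6.18 CPM in sham aortas (log2 fold change 1.05, edgeR adjusted p = 0.144, SE 0.299). Itgax had 3.66, 3.44, 4.23 and 2.58 CPM in Ang II aortas, against 2.92, 1.44, 1.76 and 2.42 CPM in sham aortas (log2 fold change 0.72, edgeR adjusted p = 0.243, SE 0.264). In these 3 genes 3 of 4 Ang II libraries lay above every sham library, and DESeq2 called Itgam alone (the authors' deposited table lists it at a log2 fold change of 1.04 and an adjusted p of 0.0254). Itgal had 5.91, 13.1, 39.8 and 22.1 CPM in Ang II aortas, against 17.5, 6.28, 11.1 and 14.01 CPM in sham aortas (log2 fold change 0.73, edgeR adjusted p = 0.527, SE 0.525). Itga4 had 7.64, 8.86, 20.7 and 13.4 CPM in Ang II aortas, against 14.2, 6.51, 9.77 and 9.496 CPM in sham aortas (log2 fold change 0.35, edgeR adjusted p = 0.623, SE 0.332). Both spread over a wide range in Ang II aortas, with replicate 3 highest, which also had the highest T and NK cell (118 CPM) and B cell (357 CPM) sums.

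At 6 months Itgb2 had 22.7, 29.4, 23.5 and 42.3 CPM in Ang II aortas, against 57.7, 56.5, 32.9 and 22.5 CPM in sham aortas (log2 fold change -0.52, edgeR adjusted p = 0.9997, SE 0.324). Itgam had 3.17, 5.02, 3.54 and 9.33 CPM in Ang II aortas, against 8.55, 3.54, 3.32 and 3.49 CPM in sham aortas (log2 fold change 0.17, edgeR adjusted p = 0.9997, SE 0.428). Itgax had 3.02, 2.28, 2.98 and 5.399 CPM in Ang II aortas, against 3.57, 10.2, 4.07 and 3.200 CPM in sham aortas (log2 fold change -0.64, edgeR adjusted p = 0.9997, SE 0.444). Sham replicate 1 stood out for Itgam and sham replicate 2 for Itgax, and Ang II replicate 4 was the highest Ang II library for each of the 5 chains. Itgal had 13.6, 13.5, 11.8 and 20.6 CPM in Ang II aortas, against 17.8, 54.1, 19.9 and 11.2 CPM in sham aortas (log2 fold change -0.81, edgeR adjusted p = 0.9997, SE 0.461). Itga4 had 18.5, 20.3, 12.7 and 34.6 CPM in Ang II aortas, against 29.4, 49.5, 21.5 and 17.2 CPM in sham aortas (log2 fold change -0.46, edgeR adjusted p = 0.9997, SE 0.389). The T and NK cell sum was 8.11, 5.87, 18.9 and 18.4 CPM in Ang II aortas, against 8.63, 71.4, 15.4 and 6.36 CPM in sham aortas and sham replicate 2 was highest, as it was for Itgal, Itga4 and Itgax. The test of the change in the Ang II effect between 6 and 2 months called none of the 7 chains (median -1.29, adjusted p of 0.269 to 0.875).

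Itga2b, the alphaIIb chain of platelets and megakaryocytes, did not pass at any time. It had 2.57, 8.13, 4.59 and 4.57 CPM in Ang II aortas, against 3.14, 4.18, 2.97 and 3.200 CPM in sham aortas at 2 months (log2 fold change 0.59, edgeR adjusted p = 0.637, SE 0.338). It had 4.46, 6.98, 26.6 and 23.3 CPM in Ang II aortas, against 12.01, 9.07, 9.06 and 5.94 CPM in sham aortas at 4 months (log2 fold change 0.77, edgeR adjusted p = 0.509, SE 0.532). It had 13.6, 57.8, 14.9 and 17.2 CPM in Ang II aortas, against 48.9, 22.2, 37.03 and 13.9 CPM in sham aortas at 6 months (log2 fold change -0.23, edgeR adjusted p = 0.9997, SE 0.537). At each time the groups overlapped. At 6 months Ang II replicate 2 stood above its group for Itga2b and for Itgb3, the beta chain of the same platelet receptor, and its other platelet markers (Pf4, Ppbp, Gp1ba and Gp9) summed to 157 CPM against 37.0 to 45.7 CPM in the other Ang II libraries. Those 4 markers summed to 20.8 to 26.9 CPM in Ang II aortas and 12.6 to 31.6 CPM in sham aortas at 2 months, overlapping ranges. Itgb3 did not overlap at that time, and the part of platelets in its values was not tested.

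**Figure D4:**
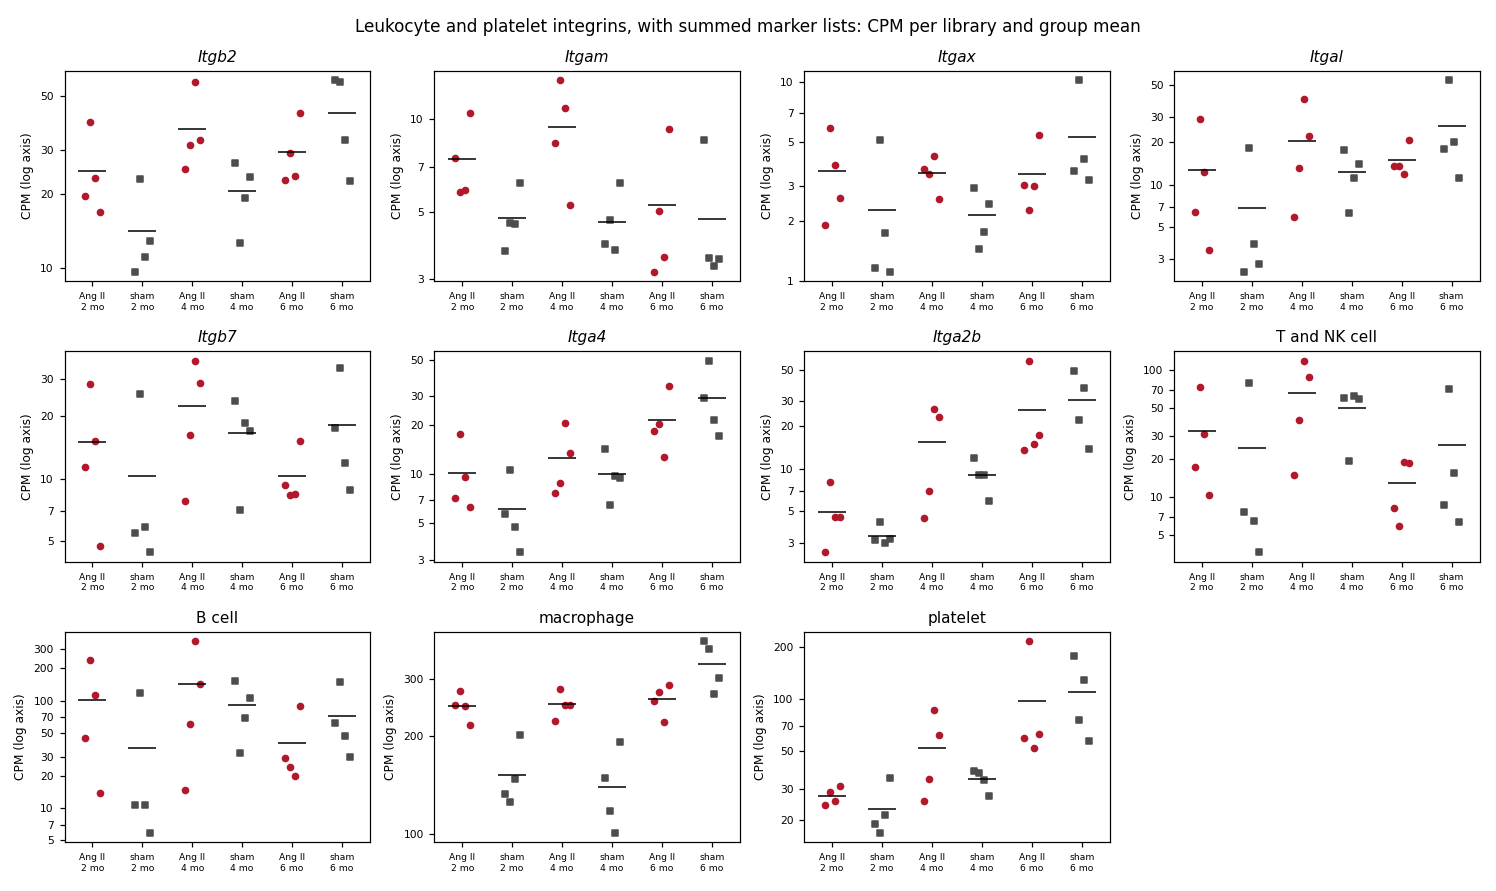
CPM in each library (points, log axis) and group mean (line) of leukocyte integrin chains, the platelet chain Itga2b and the summed markers of T and NK cells, B cells, macrophages and platelets, Ang II in red circles and sham in grey squares. At 2 months sham replicate 2 stands above its group for Itgal (18.2 CPM) and for the T and NK cell sum (79.1 CPM).

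None of the remaining integrin chains passed. Itga10, a collagen receptor chain of cartilage, averaged 1.54 ± 0.234 CPM in Ang II aortas and 2.801 ± 0.4299 CPM in sham aortas at 2 months (SD, n = 4 each), without overlap and without passing (log2 fold change -0.83, edgeR adjusted p = 0.147, SE 0.224), and 33.5% of its exon length is shared with the predicted gene Gm42957. Itga2 and Itga11, collagen receptor chains of platelets and epithelium and of fibroblasts, and Itgb8, a chain that with alphav activates latent TGF-beta, had adjusted p between 0.726 and 0.978 at 2 months. At 2 months Itga2 averaged 3.06 ± 0.9596 CPM in Ang II aortas and 2.37 ± 0.4102 CPM in sham aortas (SD, n = 4 each). Itga11 averaged 3.82 ± 0.875 CPM in Ang II and 3.31 ± 1.96 CPM in sham aortas, and Itgb8 5.36 ± 1.95 CPM in Ang II and 5.700 ± 0.649 CPM in sham aortas. Itgb8 had 3 of 4 Ang II libraries above every sham library at 4 months (log2 fold change 0.50, edgeR adjusted p = 0.2302, SE 0.1797). Itgb7, the beta7 chain of lymphocytes, was highest in the same libraries as Itgal, with 28.4 CPM in Ang II replicate 2 and 25.5 CPM in sham replicate 2 at 2 months (log2 fold change 0.56, edgeR adjusted p = 0.888, SE 0.692).

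Of the 6 laminin chains of the vascular basement membrane, Lama5 and Lamb2 fell at 2 months and Lama2, Lama4, Lamb1 and Lamc1 did not pass. Lama5, the alpha5 chain of laminins under endothelium and around smooth muscle (ENSMUSG00000015647.9, chromosome 2, 180176373 to 180225859), had 39.4, 38.1, 31.9 and 30.2 CPM in Ang II aortas, against 81.02, 55.99, 60.7 and 61.1 CPM in sham aortas (log2 fold change -0.86, edgeR adjusted p = 0.02400, SE 0.144). Lamb2, the beta2 chain of mature vessels (ENSMUSG00000052911.9, chromosome 9, 108479736 to 108490530), had 153, 127, 138 and 122 CPM in Ang II aortas, against 286, 203, 212 and 236 CPM in sham aortas (log2 fold change -0.77, edgeR adjusted p = 0.02400, SE 0.129). Neither overlapped between the treatments. Lama4, the alpha4 chain that takes the place of alpha5 in other endothelial and muscle laminins, had 126, 111, 134 and 133 CPM in Ang II aortas, against 159, 108, 107 and 133 CPM in sham aortas (log2 fold change 0.017, edgeR adjusted p = 0.989, SE 0.132). Lama2, the alpha2 chain of muscle, had 19.2, 23.05, 25.2 and 20.3 CPM in Ang II aortas, against 23.8, 18.2, 29.7 and 20.6 CPM in sham aortas (log2 fold change -0.047, edgeR adjusted p = 0.967, SE 0.161). Lamb1 had 120.1, 129, 140.04 and 152 CPM in Ang II aortas, against 181, 145, 162 and 116 CPM in sham aortas (log2 fold change -0.13, edgeR adjusted p = 0.858, SE 0.1402). All 3 overlapped between the treatments. Lamc1, too, overlapped. This chain, gamma1, which is common to nearly all of these trimers, had 139.7, 135, 147 and 134 CPM in Ang II aortas, against 163, 122, 159 and 163 CPM in sham aortas (log2 fold change -0.10, edgeR adjusted p = 0.8601, SE 0.107). Lama5 as a share of Lama4 in CPM was 31.3, 34.4, 23.8 and 22.8% in Ang II libraries and 51.03, 51.96, 56.7 and 45.8% in sham libraries. Neither call held without both libraries highest in lung and airway epithelium (Ang II replicate 1 and sham replicate 3), a setting added after the data were seen, and each was lost without several single libraries (highest adjusted p = 0.0878 for Lama5 and 0.0864 for Lamb2), with log2 fold changes between -1.01 and -0.74 for Lama5 and between -0.89 and -0.67 for Lamb2.

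At 4 months none of the 6 chains passed. Lama5 had 37.3, 38.6, 25.7 and 31.8 CPM in Ang II aortas, against 25.7, 37.7, 22.9 and 35.7 CPM in sham aortas (log2 fold change 0.15, edgeR adjusted p = 0.729, SE 0.203). Lamb2 had 129.9, 109.8, 89.8 and 107 CPM in Ang II aortas, against 91.2, 118, 88.8 and 191 CPM in sham aortas (log2 fold change -0.14, edgeR adjusted p = 0.796, SE 0.251). Sham replicate 4 was the highest of its group for Lamb2 but not for Lama5. Lama4 had 93.5, 83.04, 78.6 and 80.3 CPM in Ang II aortas, against 63.7, 77.6, 68.5 and 98.3 CPM in sham aortas (log2 fold change 0.14, edgeR adjusted p = 0.637, SE 0.141). Lama2 had 21.6, 17.98, 15.96 and 19.1 CPM in Ang II aortas, against 19.3, 21.7, 15.1 and 24.3 CPM in sham aortas (log2 fold change -0.087, edgeR adjusted p = 0.806, SE 0.164). Lamb1 had 170.2, 156, 131 and 144 CPM in Ang II aortas, against 125, 148, 131 and 173 CPM in sham aortas (log2 fold change 0.083, edgeR adjusted p = 0.771, SE 0.132). Lamc1 had the log2 fold change nearest to 0 of the 36 genes at this time. It had 136, 138, 118 and 130.1 CPM in Ang II aortas, against 122, 137, 116 and 148 CPM in sham aortas (log2 fold change 0.020, edgeR adjusted p = 0.932, SE 0.104).

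At 6 months 5 of the 6 chains had a log2 fold change below 0, as did 28 of the 36 genes, and none was called. Lama5 had 86.5, 68.1, 79.9 and 64.8 CPM in Ang II aortas, against 60.98, 87.6, 74.9 and 73.02 CPM in sham aortas (log2 fold change 0.0052, edgeR adjusted p = 0.9997, SE 0.153). Lamb2 had 206, 172, 202 and 166 CPM in Ang II aortas, against 207, 214, 202 and 213 CPM in sham aortas (log2 fold change -0.17, edgeR adjusted p = 0.9997, SE 0.117). Lama4 had 202, 166, 155 and 125 CPM in Ang II aortas, against 233, 199, 189.6 and 204 CPM in sham aortas (log2 fold change -0.35, edgeR adjusted p = 0.942, SE 0.147). For Lama4, Lama2 and Lamc1 3 of 4 Ang II libraries lay below every sham library. Lama2 had 77.4, 70.3, 57.9 and 59.1 CPM in Ang II aortas, against 75.9, 83.7, 83.05 and 83.3 CPM in sham aortas (log2 fold change -0.31, edgeR adjusted p = 0.926, SE 0.119). Lamb1 had 170.3, 163, 156 and 113 CPM in Ang II aortas, against 163, 158, 167 and 178 CPM in sham aortas (log2 fold change -0.15, edgeR adjusted p = 0.9997, SE 0.1396). Lamc1 had 226, 182, 193 and 152 CPM in Ang II aortas, against 217, 243, 208 and 206 CPM in sham aortas (log2 fold change -0.22, edgeR adjusted p = 0.9997, SE 0.141). Lama2, Lama4 and Lamc3 were the 3 genes with an unadjusted p under 0.05 by edgeR at this time (0.0308, 0.04095 and 0.0379). Of all genes 5.05% had one.

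Lama3 and Lamb3 encode chains of the laminin that anchors skin and airway epithelium. At 2 months Lama3 had 2.33, 2.76, 2.02 and 1.81 CPM in Ang II aortas, against 1.904, 2.09, 2.49 and 1.39 CPM in sham aortas (log2 fold change 0.21, edgeR adjusted p = 0.8895, SE 0.261). Lamb3 had 4.303, 6.53, 5.49 and 3.38 CPM in Ang II aortas, against 4.94, 4.01, 9.92 and 2.63 CPM in sham aortas (log2 fold change -0.096, edgeR adjusted p = 0.974, SE 0.406). Sham replicate 3, the library with 7715 CPM of lung and airway epithelium transcripts, was the highest sham library for both. Among the Ang II libraries replicate 2 (1268 CPM) was highest for both, and not replicate 1, which held the most (2014 CPM). At 4 months Lama3 had 1.33, 1.52, 1.79 and 2.62 CPM in Ang II aortas, against 3.45, 1.16, 1.43 and 3.05 CPM in sham aortas (log2 fold change -0.31, edgeR adjusted p = 0.717, SE 0.3997). Lamb3 had 3.296, 4.16, 4.89 and 3.78 CPM in Ang II aortas, against 8.33, 5.58, 4.91 and 4.45 CPM in sham aortas (log2 fold change -0.51, edgeR adjusted p = 0.328, SE 0.226). Neither passed at this time. Both were highest in sham replicate 1, with 191 CPM of lung and airway epithelium transcripts, and neither was highest of its group in Ang II replicate 2, with 5092 CPM. At 6 months Lama3 had 8.71, 8.36, 16.3 and 11.3 CPM in Ang II aortas, against 8.46, 8.91, 18.7 and 8.72 CPM in sham aortas (log2 fold change -0.0088, edgeR adjusted p = 0.9997, SE 0.336). Lamb3 had 6.89, 7.71, 19.1 and 12.2 CPM in Ang II aortas, against 5.35, 10.1, 22.6 and 11.9 CPM in sham aortas (log2 fold change -0.13, edgeR adjusted p = 0.9997, SE 0.475). Ang II replicate 3 and sham replicate 3 were the highest libraries of their groups for both chains at 6 months. They held 4096 and 2693 CPM of lung and airway epithelium transcripts, but the most were in Ang II replicate 1 and sham replicate 2 (4316 and 5738 CPM), and the part of that tissue was not tested.

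Lamc3, the gamma3 chain, had 10.6, 8.41, 9.53 and 7.11 CPM in Ang II aortas, against 17.4, 14.1, 13.7 and 15.02 CPM in sham aortas at 2 months, without overlap and just short of the threshold (log2 fold change -0.73, edgeR adjusted p = 0.0534, SE 0.1497). It averaged 8.52 ± 1.42 CPM in Ang II and 10.6 ± 1.82 CPM in sham aortas at 4 months, and 23.9 ± 2.81 CPM in Ang II and 30.8 ± 6.19 CPM in sham aortas at 6 months (SD, n = 4 each; log2 fold changes -0.29 and -0.36). Lama1, the alpha1 chain of embryonic and kidney laminins, lay at 0 to 0.771 CPM in every library. In all, 13 of the 36 genes did not overlap at 2 months (7.89% of all genes did not). For 12 of them every Ang II library lay below every sham library (5.51% of all genes) and for 1 every Ang II library lay above (2.38%). The 12 were the 9 called genes with Itgb1, Itga10 and Lamc3, the same 12 that the authors' deposited table lists at an adjusted p under 0.05 (2.64e-05, 0.0178 and 0.000457 for the last 3). At 4 months 0 of 36 were without overlap, against 10.2% of all genes (3.22% higher and 7.03% lower). At 6 months it was 0 of 36, against 2.88%.

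Per kb of exon, Itgb1 was the most abundant of the 37 transcripts in each of the 6 groups and Lama1 the least. In sham aortas at 2 months the order was Itgb1 (99.3 ± 11.02 CPM per kb), Itgb5 (48.1 ± 7.72), Lamb2 (38.6 ± 6.13), Itga8 (31.6 ± 8.71), Npnt (23.3 ± 6.32), Lamc1 (18.4 ± 2.401) and Itga5 (17.7 ± 5.26; SD, n = 4). Itgb1 stood above Itgb5 by more than the sum of their SDs, while each further pair of neighbours among these 7 differed by less than that. In Ang II aortas at 2 months the order was Itgb1 (68.6 ± 4.82), Itgb5 (26.9 ± 2.57), Lamb2 (22.2 ± 2.27), Lamc1 (16.8 ± 0.705), Lamb1 (13.6 ± 1.41) and Lama4 (10.4 ± 0.876), and of these only Itgb5 and Lamb2 were neighbours that differed by less than the sum of their SDs. Itga8 stood at place 14 of 37 with 3.26 ± 2.01 CPM per kb in Ang II aortas and at place 4 in sham aortas, and Npnt at place 17 with 2.77 ± 0.874 and at place 5. At 6 months Itga8 was at place 6 in Ang II aortas and 7 in sham aortas, and Npnt at place 11 in Ang II aortas and 15 in sham aortas.

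**Figure D5:**
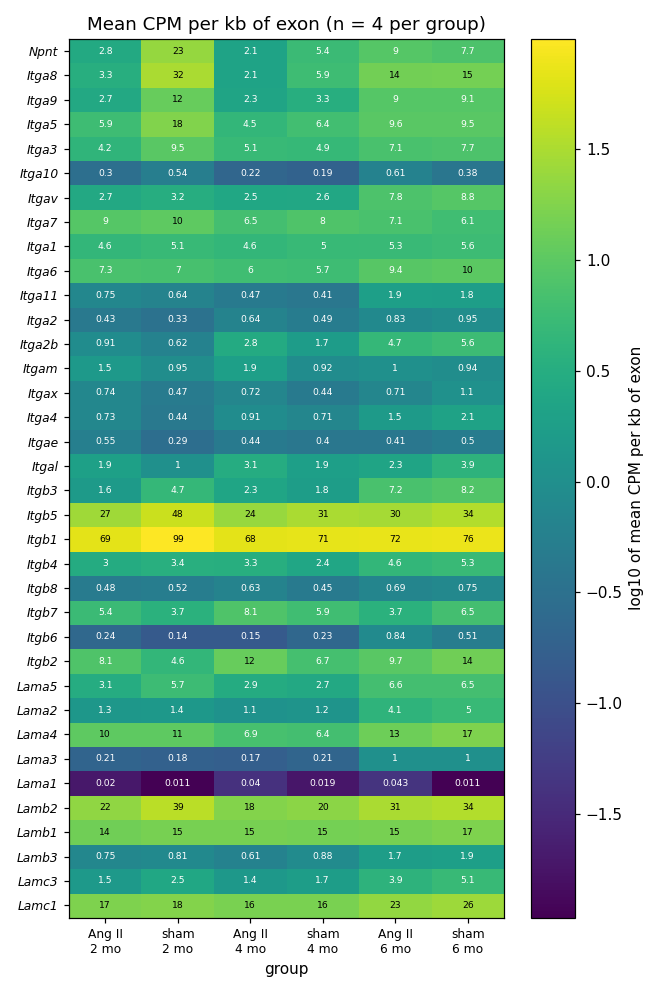
Mean CPM per kb of exon of 36 of the 37 genes in each group of 4 libraries, as numbers and as colour on a log10 scale. Itga8 and Npnt are the integrin alpha chain and ligand whose colour changes most between Ang II and sham at 2 months (3.26 and 31.6 CPM per kb for Itga8, 2.77 and 23.3 for Npnt).

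Sham aortas were compared over time because the difference between treatments at 2 months was not called at 4 months. At 4 months Npnt was 10.7, 15.2, 12.8 and 70.7 CPM in sham aortas, against 153, 107, 78.6 and 129 CPM in sham aortas at 2 months (log2 fold change -2.11, edgeR adjusted p = 0.168, SE 0.619). Itga8 was 12.7, 15.5, 19.4 and 126 CPM at 4 months, against 293, 227, 146 and 267 CPM at 2 months (log2 fold change -2.44, edgeR adjusted p = 0.186, SE 0.758). Itga9 was 15.9, 14.4, 13.4 and 58.3 CPM at 4 months, against 122, 89.9, 64.00 and 90.8 CPM at 2 months (log2 fold change -1.86, edgeR adjusted p = 0.139, SE 0.501). In all 3 genes every library at 4 months lay below every one at 2 months, and 3 of 4 were at or below the range of the Ang II libraries at 2 months. With all libraries 0 of 36 genes passed edgeR (0.00619% of 16144 genes did), 17 had an unadjusted p under 0.05 (15.8% of all genes), and DESeq2 called 13 and voom 14. Those 2 tools also called far more of all genes than edgeR in this comparison. Without sham replicate 4 at 4 months edgeR called 14 (and 641 of all genes): Npnt, Itga10, Itga3, Itga5, Itga8, Itga9, Itgb1, Itgb3, Itgb5, Lama4, Lama5, Lamb2 and Lamc3 lower and Itga2b higher at 4 months. Groups did not overlap for 14 genes, 13 lower and 1 higher. Of all genes 9.4% did not overlap, 6.11% lower and 3.3% higher. The contractile sum differed by -1.92 on the log2 scale (exact permutation p = 0.0286). Time and any difference in how the libraries of each time were made cannot be told apart, and the 4 sham libraries at 2 months serve this comparison and that with Ang II alike.

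Other genes of the same structures were counted from lists of 17 basement membrane genes, 25 genes of adhesion complexes and 26 integrin ligands. The lists were chosen with earlier results of these data known, so the counts are not a test of the lists. Over all genes 1.44% were called lower and 0.371% higher at 2 months. At that time 4 of 17 basement membrane genes were called lower and 0 higher (median -0.38). They were Col4a5 and Col4a6, paired type IV collagen chains of smooth muscle basement membrane, Col18a1, which carries endostatin, and Bcam, a receptor of the laminin alpha5 chain. Col4a5 averaged 9.68 ± 2.06 CPM in Ang II aortas, against 32.7 ± 4.46 CPM in sham aortas (log2 fold change -1.72, edgeR adjusted p = 0.004699, SE 0.169). Bcam averaged 142 ± 5.84 CPM in Ang II aortas, against 262 ± 20.9 CPM in sham aortas (log2 fold change -0.86, edgeR adjusted p = 0.00525, SE 0.0861). Col4a6 and Col18a1 had log2 fold changes of -1.67 and -1.95 (edgeR adjusted p = 0.00963 and 0.0118). In adhesion complexes 3 of 25 were called lower and 0 higher (median -0.17): Flna and Actn1, which crosslink actin at integrin tails, and Tgfb1i1, the paxillin relative Hic-5. Flna averaged 320.2 ± 86.6 CPM in Ang II aortas, against 1216 ± 309.8 CPM in sham aortas (log2 fold change -1.89, edgeR adjusted p = 0.0106, SE 0.255). Actn1 and Tgfb1i1 had log2 fold changes of -2.002 and -1.09 (edgeR adjusted p = 0.00646 and 0.0177).

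Of 22 tested integrin ligands other than Npnt, 4 were called lower at 2 months (1.44% of all genes were) and 0 higher (median -0.18). They were Ctgf, Fbln5, which binds elastin and integrins, Postn, periostin, and Tnc, the alpha9 ligand tenascin C. Tnc averaged 12.6 ± 2.35 CPM in Ang II aortas, against 30.7 ± 9.04 CPM in sham aortas (log2 fold change -1.25, edgeR adjusted p = 0.02400, SE 0.211). Postn averaged 92.5 ± 17.2 CPM in Ang II aortas, against 231 ± 51.7 CPM in sham aortas (log2 fold change -1.29, edgeR adjusted p = 0.0118, SE 0.1796). Fbln5 and Ctgf had log2 fold changes of -1.18 and -1.73 (edgeR adjusted p = 0.0274 and 0.0311). At 4 and 6 months 0 genes of the 3 lists passed, against 0.707% and 0.0% of all genes. For the change of the Ang II effect between 6 and 2 months, 3 of 17 basement membrane genes (Col18a1, Col4a5 and Col4a6) and 3 of 25 adhesion genes (Actn1, Flna and Tgfb1i1) were called, and of the ligands Npnt alone. All had a higher log2 fold change at 6 than at 2 months. By the same test 0.711% of all genes were called in that direction.

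Start regions were searched for 4 motifs on both strands in windows of 300 bases (250 before the RefSeq transcript start and 50 after), of which 24 of the 37 genes have 28. The CArG box, the serum response factor motif found at many contractile genes, was in 2 of 28 windows (Itgb6 and Lama2) and in 1.63% of all 32851 windows. The TEAD motif GGAATG was in 3 of 28 (14.7% of all), TATAAA in 0 of 28 (13.6%) and GGGCGG in 13 of 28 (35.7%). Matches of different motifs were counted separately, whether or not they overlapped. The windows had a median of 59.2% G and C, against 52.7% over all windows. A match describes letters only.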

How the data were processed

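The authors deposited 1 table of raw read counts per gene for the 24 libraries and, for each time, a DESeq2 table whose columns are, per the file headers, the counts, a mean of normalized counts (a signal), the log2 fold change with its error, its test score, the p-value and adjusted p, and the fold change as a ratio. The submitters' processing notes list STAR and featureCounts, beside cutadapt, DESeq2 and FastQC, on build mm10, with versions, gene annotation and strand setting not given in the sources used here. Per the labels, libraries came from total RNA with a SMARTER mRNA-Seq kit.

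The counts were tested with edgeR 4.0.16 in R 4.3.3 (quasi-likelihood test, genes with at least 10 counts by its expression filter and 15 in total, TMM scaling, Benjamini-Hochberg adjustment over all genes tested), within each time, between sham groups at 4 and 2 months, and for the change of the Ang II effect between times. The contractile sum, and at 2 months the shares of the 9 called genes in it, were compared by two-sided exact permutation. CPM in the text were scaled over all 24 libraries, while fold changes come from each comparison's own fit. SE is the log2 fold change divided by the root of its F value. Exon lengths are from GENCODE M21. DESeq2 1.42.0, DESeq2 size factors, limma 3.58.1 voom with quality weights, no low-count filter, removal of mitochondrial and ribosomal genes, a replicate block, all libraries in 1 fit and leaving out each library were tried as alternatives. The edgeR procedure was tested on simulated data.

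The genes and lists were chosen with earlier results of these data known. Values in all libraries are given for genes called in a comparison, for Npnt, Itga8 and Itgb1, and for chains listed by role; other genes by count and range. One of the 37 genes enters the counts but is not reported here by itself. Sftpb and Ccn1 of the lists were not used here, and Ccn2 was matched as Ctgf. Replicate numbers were not taken as pairs.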

Additional observations from a re-analysis of the deposited data

Results flagged for a closer look

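The Ang II effect differed between 6 and 2 months, by the test of the difference itself, for Npnt (3.25 on the log2 scale), Itga8 (3.19), Itga9 (2.12), Itga5 (1.58) and Itga3 (1.024). Each was called lower in Ang II aortas at 2 months. None was called at 6 months, where the log2 fold changes lay between -0.11 (Itga3) and 0.22 (Npnt).

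Of 216 groups of 4 libraries checked, 20 held a library far from the other 3 by Dixon's ratio, where chance gives about 1 in 20. Sham replicate 4 at 4 months was far above its group for 3 genes, Itga8 (126 CPM, against 12.7 to 19.4 CPM in the other libraries), Npnt (70.7 CPM, against 10.7 to 15.2 CPM) and Itga9 (58.3 CPM, against 13.4 to 15.9 CPM), and its contractile sum was also the highest. At 4 months, too, Ang II replicate 1 was high for Itga5 (30.7 CPM) and Ang II replicate 3 low for Itga10 (0.699 CPM).

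At 2 months sham replicate 2 was high for the leukocyte chains Itgal (18.2 CPM), Itgb7 (25.5 CPM) and Itgax (5.11 CPM) and for Itga2 (2.98 CPM), and low for Lamc1 (122 CPM, against 159 to 163 CPM). The same library had the highest T and NK cell sum of its group (79.1 CPM, against 3.65 to 7.58 CPM). Sham replicate 3 at 2 months was high for Itgb6 (2.14 CPM) and had the most lung and airway epithelium transcripts of all libraries, but the Ang II library of that time with the most (2014 CPM) was the lowest of its group for Itgb6. The part of these cells in the values was not tested.

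At 6 months Ang II replicate 2 was high for both chains of the platelet receptor, Itga2b (57.8 CPM, against 13.6 to 17.2 CPM) and Itgb3 (68.3 CPM, against 31.8 to 37.3 CPM), and for the other platelet markers (157 CPM). Ang II replicate 4 was high for Itgb7 (15.2 CPM). Sham replicate 2 was high for Itgax (10.2 CPM), Itgae (3.39 CPM) and Itgb8 (11.2 CPM), sham replicate 1 was high for Itgam (8.55 CPM) and low for Lama2 (75.9 CPM), and sham replicate 3 was high for Lama3 (18.7 CPM).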

How the results depend on the processing

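Alternative fits were counted for the genes called in a comparison, and for Npnt, Itga8 and Itgb1 in each comparison of Ang II with sham. Of these 360 fits 315 kept the direction and the side of the threshold, and 32 kept the direction and lost the call. A further 3 gained it and 10 changed direction, the last all at 4 or 6 months. The other genes described above are not in this count. Under voom Itgb1 at 4 months became 0.024 and Itga8 at 6 months 0.060. When single libraries were left out, Itga8 ranged from -2.34 to 0.0055 and Itgb1 from -0.11 to 0.062 at 4 months, and at 6 months Itga8 from -0.27 to 0.19 and Itgb1 from -0.14 to 0.063. The positive value of Itga8 at 4 months came without sham replicate 4, against -1.44 with all libraries. The causes were not tested.

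Counts of called genes depended on the tool. After the same expression filter, each tool was given 16421 genes at 2 months, 16127 at 4 months and 19343 at 6 months. Between sham groups it was given 16144 genes, and for the changes at 4 and 6 months 17153 and 20100. DESeq2 called 727 genes at 2 months, 993 at 4 months, 63 at 6 months, 852 between sham groups, 179 for the change of the Ang II effect at 4 months and 477 at 6 months; of the 37 genes it called 1 at 4 months, 13 between sham groups, 3 for the change at 4 months and 9 at 6 months. Voom called 629, 602, 801, 467 and 382 genes at 2 months, at 4 months, between sham groups and for both changes, and 14, 5 and 8 of the 37 genes in the last 3. Without a low-count filter 40 genes were called at 4 months and 4 between sham groups. In 1 fit of all libraries 11 were called at 4 months, without mitochondrial and ribosomal genes 233, and 1 for the change at 4 months, as with DESeq2 size factors.

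With single libraries left out, 5 to 10 of the 37 genes and 78 to 255 genes in all were called at 2 months, fewest without sham replicate 1 (5 and 78) and without Ang II replicates 3 or 4 (5 and 103). Sham replicate 4 at 4 months moved most. Leave-one-out counts were 0 to 674 genes at 4 months, 0 to 641 genes and 0 to 14 of the 37 between sham groups, and 0 to 128 genes and 0 to 5 of the 37 for the change at 4 months, the highest each time without it. For the change at 6 months they were 122 to 222 genes, fewest without sham replicate 1 at 2 months.

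Libraries with the same replicate number deviated together in some pairs and not in others, so the numbers were not taken as pairs (correlations -0.29 to 0.56, 5 of 12 over 0.1, and 3 of 12 Ang II libraries nearest to their own number). With the replicate block 0 genes were called at 4 months, 87 for the change at 6 months, and between sham groups 140 genes and 1 of the 37 (Itgb3), and at 2 months the 9 genes remained called.

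Depth limits the low chains: Lama1 had 154 counts in all and was not tested within a time. Itgb1 at 2 months was called by DESeq2, by voom and without mitochondrial and ribosomal genes, and under none of the other alternatives run.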

Other observations

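At 2 and 4 months the ratio of Npnt to Itga8 spanned 0.421 to 1.07, while Npnt spanned 5.05 to 153 CPM and Itga8 4.70 to 293 CPM. At 6 months Npnt spanned 26.6 to 54.7 CPM and Itga8 54.9 to 155 CPM. Npnt over Itga8 in CPM was 0.421, 0.787, 0.736 and 0.634 in Ang II aortas and 0.523, 0.471, 0.5401 and 0.484 in sham aortas at 2 months. It was 0.575 to 1.07 in Ang II aortas and 0.562 to 0.979 in sham aortas at 4 months, and 0.352 to 0.625 in Ang II aortas and 0.304 to 0.381 in sham aortas at 6 months. At each time the ranges of the treatments overlapped.

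Itgb3 over its platelet partner Itga2b was 4.05, 1.400, 1.56 and 1.68 in Ang II aortas and 9.43, 5.96, 6.56 and 11.9 in sham aortas at 2 months, without overlap. At 4 months the ratio was 0.622 to 2.11 in Ang II aortas and 0.716 to 2.98 in sham aortas, and at 6 months 1.18 to 2.74 in Ang II aortas and 1.32 to 2.43 in sham aortas, with overlap at both times. These ratios were chosen after the values were seen and were not tested.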
